A study of Mus musculus with 15 samples.

Results

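Polycomb repressive complex 2 (PRC2) was followed through 9 genes, Ezh1, Ezh2, Eed, Suz12, Rbbp4, Rbbp7, Jarid2, Mtf2 and Phf19, together with every circular RNA (circRNA) whose deposited name ends in one of these symbols. The genes were taken by symbol and the rule used no measured values, although earlier results of these data were known when they were chosen. All 9 had a row among the 21566 genes of the sorted cells, and 8 of them had one among the 10781 genes of the time series, where Phf19 was not analysed here. The circRNA names gave 22 of 7528 circRNAs in the time series, of which 11 came from Ezh2, and 14 of 3927 in the sorted cells, of which 9 came from Ezh2.

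All cells came from the ventral midbrain of mice of the genotype Pitx3-GFP, in which green fluorescent protein reports Pitx3, a transcription factor gene of midbrain dopamine neurons, and were purified by FACS. At embryonic day 14 (E14), GFP+ cells were set against GFP− cells, with 3 libraries of each. In a time series, further GFP+ cells were taken at E14, at embryonic day 16 (E16) and on the day of birth (P0), again with 3 libraries an age, which makes 15 libraries in 5 groups. Midbrains came from several litters, and the sources used here do not tie a library to a litter, so p-values measure the spread between these libraries, which may be technical. Libraries were made from total RNA after removal of ribosomal RNA, which keeps RNAs without a poly(A) tail.

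PRC2 places methyl groups on lysine 27 of histone H3, a mark of repressed genes. Ezh2 and Ezh1 are its alternative catalytic subunits, Eed binds the mark and stimulates the enzyme, Suz12 is the scaffold, and the histone binders Rbbp4 and Rbbp7 complete the core. Jarid2, Mtf2 and Phf19 are accessory subunits that help to bring the complex to chromatin. Ezh2 is known to be abundant in dividing progenitors and Ezh1 in cells that have stopped dividing. A circRNA is a loop that arises when a splice donor joins an upstream acceptor, and it is counted from reads across that back-splice junction.

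The promoters of 4 of the genes are shown because these genes span the patterns described below. Ezh2 had the largest change with age among the 8 genes, Ezh1 is its paralogue that changed the other way, and Suz12 and Phf19 carry the same promoter word. Each run holds 250 bases before and 50 after the start of transcription in RefSeq on GRCm38.p6, 5′ to 3′ on the gene's strand, and capitals mark a match to one of 4 words, TTTCCCGC, TTTCGCGC, TTTGCCGC and TTTGGCGC, known as binding sequences of the E2F cell cycle factors, on either strand. The Ezh2 run is chr6:47594981-47595280 (minus strand), the Ezh1 run chr11:101226414-101226713 (minus strand), the Suz12 run chr11:79992856-79993155 (plus strand) and the Phf19 run chr2:34913927-34914226 (minus strand).
Ezh2 promoter: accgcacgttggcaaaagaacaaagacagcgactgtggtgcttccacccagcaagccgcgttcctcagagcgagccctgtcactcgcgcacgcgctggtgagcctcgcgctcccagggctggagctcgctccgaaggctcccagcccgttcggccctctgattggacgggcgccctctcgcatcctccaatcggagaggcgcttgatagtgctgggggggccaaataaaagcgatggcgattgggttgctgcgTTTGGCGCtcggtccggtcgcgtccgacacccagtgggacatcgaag
Ezh1 promoter: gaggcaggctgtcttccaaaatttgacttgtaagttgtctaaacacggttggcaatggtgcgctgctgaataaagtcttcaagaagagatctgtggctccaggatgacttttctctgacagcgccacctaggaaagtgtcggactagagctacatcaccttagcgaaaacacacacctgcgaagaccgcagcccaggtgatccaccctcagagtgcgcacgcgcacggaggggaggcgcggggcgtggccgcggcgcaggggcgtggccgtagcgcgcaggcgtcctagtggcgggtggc
Suz12 promoter: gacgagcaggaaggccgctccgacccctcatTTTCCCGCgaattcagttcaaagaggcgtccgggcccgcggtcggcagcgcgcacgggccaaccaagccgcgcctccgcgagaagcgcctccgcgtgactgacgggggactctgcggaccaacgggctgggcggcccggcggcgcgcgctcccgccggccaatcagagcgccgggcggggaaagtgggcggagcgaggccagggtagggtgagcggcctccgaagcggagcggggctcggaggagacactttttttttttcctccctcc
Phf19 promoter: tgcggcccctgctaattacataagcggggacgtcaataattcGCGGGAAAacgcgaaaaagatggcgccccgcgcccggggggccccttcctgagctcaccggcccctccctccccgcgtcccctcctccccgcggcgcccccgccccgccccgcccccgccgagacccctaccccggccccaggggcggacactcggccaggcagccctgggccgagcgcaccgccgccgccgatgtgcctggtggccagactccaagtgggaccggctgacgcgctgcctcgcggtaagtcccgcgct
A word was found in 3 of the 9 genes, TTTGGCGC in Ezh2 and TTTCCCGC in Suz12 and Phf19, and the Phf19 match reads on the other strand. The 9 genes had 11 promoters between them. Of 32851 RefSeq promoters of this length, 2.26% held at least 1 of the 4 words. The first count is by gene and this share is by promoter. Each of the 4 words holds CG, and the share was not matched for how often CG occurs. A match is a description of the sequence and not a site in use.

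The gene tables held 17369191 to 22374153 reads per sorted library and 17910017 to 33386535 per time series library, and back-splice reads numbered 11196 to 33061 per time series library and 10498 to 16509 per GFP− library. Of 10 marker genes of midbrain dopamine neurons, which include the sorted gene Pitx3, all 10 were higher in GFP+ than in GFP− cells, with a summed level of 86300 to 97700 normalized reads in GFP+ libraries against 5050 to 6550 in GFP− libraries. The labels name dopamine neurons as the cell type of both fractions. In the time series that sum was 110000 to 118000 at E14, 168000 to 176000 at E16 and 229000 to 288000 at P0, while 6 of the 10 genes were lower and 3 higher at P0 than at E14 (median log2 fold change -0.67), among them Pitx3 at -1.10 and Aldh1a1 at 3.04. All 10 markers of dividing cells were lower in GFP+ cells, with a sum of 1760 to 1930 in GFP+ against 7910 to 9950 normalized reads in GFP− libraries, and none of them was at 0. Of the other marker lists, 10 of 10 genes of radial glia and progenitors, 7 of 7 of microglia, 7 of 7 of erythroid cells, 6 of 7 of blood vessels, 5 of 6 of the oligodendrocyte lineage, 3 of 6 of astrocytes, 8 of 9 of GABAergic neurons and 6 of 7 of neurons with another transmitter were lower in GFP+ cells, and 1 astrocyte and 1 GABAergic gene were higher.

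Between E14 and P0 the RNA of the methyltransferase Ezh2 fell steeply in the GFP+ cells, the RNA of most of its partners fell less, and 2 members rose. Ezh2 fell 3.77-fold, while Ezh1, its paralogue, rose 1.23-fold. Eed and Suz12 fell 1.55-fold and 1.37-fold. Of the 2 histone binders, Rbbp4 fell 1.43-fold and Rbbp7 rose 1.38-fold, and the accessory subunits Jarid2 and Mtf2 fell 1.65-fold and 1.31-fold.

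**Figure D1:**
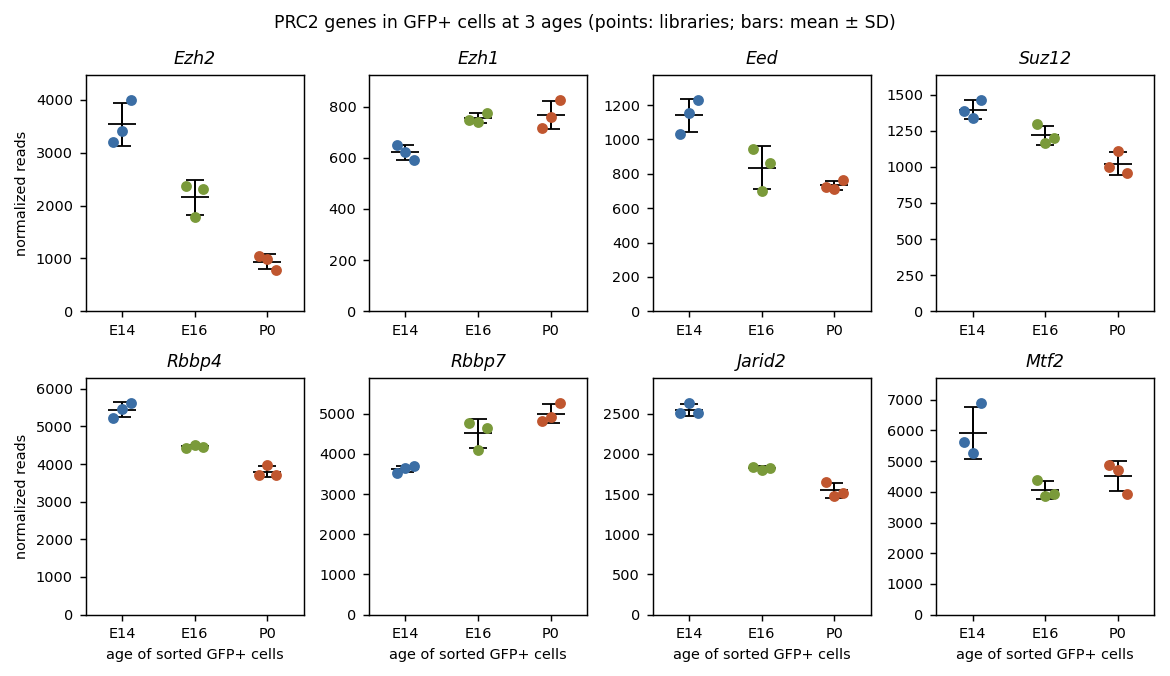
Normalized reads (vertical axes, each starting at 0) of 8 PRC2 genes in GFP+ cells at E14, E16 and P0; points are the 3 libraries of each age and bars the mean with its SD. Ezh2 stands at 3198 to 3997 at E14 and at 786 to 1045 at P0, while Ezh1 and Rbbp7 lie higher at P0 than at E14.

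Ezh2 (chromosome 6, 47530139 to 47595341, minus strand of GRCm38) held 3198, 3402 and 3997 normalized reads in the E14 libraries, 2377, 1778 and 2309 at E16 and 1045, 989 and 786 at P0. Every library of a later age was below every library of an earlier one. The mean was 3532 ± 415 at E14, 2155 ± 328 at E16 and 940 ± 136 at P0 (SD, n = 3 each). In limma's fit across all genes the log2 fold change of P0 over E14 was -1.91 (SE 0.13, limma adjusted p = 3.51e-08). The step from E14 to E16 measured -0.72 (SE 0.13, limma adjusted p = 0.000749) and the step from E16 to P0 -1.19 (SE 0.13, limma adjusted p = 2.29e-05). In bulk RNA, fewer cells of a type and less RNA per cell cannot be told apart. Beside this fall, the 3 of 10 progenitor markers with a row, Fabp7, Nes and Vim, summed to 4050 to 4310 normalized reads at E14, 2740 to 3130 at E16 and 2200 to 4400 at P0, and the 2 of 10 markers of dividing cells with a row, Mcm6 and Pcna, to 1540 to 1630, 1520 to 1650 and 1500 to 1650. Between E14 and P0 Nes and Vim fell (log2 fold changes of -1.30 and -1.62) and Fabp7 rose (1.19) (limma adjusted p = 8.72e-06, 1.74e-09 and 0.00213), and Mcm6 rose (0.34) and Pcna fell (-0.27; limma adjusted p = 0.00612 and 0.0182). Their part in the result was not tested.

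Ezh1 (chromosome 11, 101191115 to 101226463, minus strand) held 650, 623 and 591 normalized reads at E14, 749, 739 and 777 at E16 and 718, 759 and 826 at P0. The E14 libraries lay below all others, and those of E16 and P0 overlapped. Its log2 fold change was 0.30 for P0 over E14 (SE 0.09, limma adjusted p = 0.00989) and 0.28 for E16 over E14 (SE 0.09, limma adjusted p = 0.0256), against 0.02 for P0 over E16 (SE 0.09, limma adjusted p = 0.87). The E16 over E14 call was lost, with limma adjusted p of 0.0708, 0.0886 and 0.0853, without E14 library 2, E14 library 3 or E16 library 3, in this order.

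The log2 difference between Ezh2 and Ezh1 within a library, which up to the pseudocount does not depend on how libraries are scaled, averaged 2.50 ± 0.23 at E14, 1.5 ± 0.21 at E16 and 0.28 ± 0.32 at P0 (SD, n = 3 each). An exact permutation test over all 1680 assignments of the 9 libraries to 3 ages gave p = 0.00357, the smallest value it can give, and 0.00833 after Benjamini-Hochberg adjustment over 7 such exact tests. Per kilobase of exon, Ezh2 stood at 141 ± 20.4 and Ezh1 at 103 ± 7.35 normalized reads at P0, against 529 ± 62.2 and 83.6 ± 3.95 at E14. On this measure the libraries of the 2 genes did not overlap at any of the 3 ages, and Ezh2 was the higher one at each. In normalized reads not divided by length they overlapped at P0, at 786 to 1045 for Ezh2 and 718 to 826 for Ezh1. P0 library 3 held more normalized reads of Ezh1 (826) than of Ezh2 (786). Reads of Ezh2 include those that fall on its circRNAs, while no circRNA of Ezh1 was listed in the time series.

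Among the core partners, Eed (chromosome 7, 89954654 to 89980983) held 1035, 1154 and 1230 normalized reads at E14, 943, 702 and 864 at E16 and 723, 713 and 762 at P0. All E14 libraries were above those of both later ages, which overlapped. The log2 fold change was -0.63 for P0 over E14 (SE 0.11, limma adjusted p = 0.000231). It was -0.45 for E16 over E14 (SE 0.11, limma adjusted p = 0.00573) and -0.18 for P0 over E16 (SE 0.11, limma adjusted p = 0.223), and the last passed without E16 library 2 at -0.30 (limma adjusted p = 0.0291). Suz12 (chromosome 11, 79993106 to 80034123) held 1385, 1335 and 1463 normalized reads at E14, 1294, 1166 and 1196 at E16 and 998, 1112 and 956 at P0, with no overlap between ages. It fell by 0.45 on the log2 scale between E14 and P0 (SE 0.08, limma adjusted p = 0.000469). The first step did not pass (-0.19, SE 0.09, limma adjusted p = 0.0932). The second did (-0.25, SE 0.09, limma adjusted p = 0.0327), but not without E16 library 1 or 3 or P0 library 1 or 3, with limma adjusted p of 0.0714 to 0.103.

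The histone binders Rbbp4 and Rbbp7, close paralogues that also serve NuRD and Sin3, moved in opposite directions. Rbbp4 (chromosome 4, 129307100 to 129335370) held 5228, 5471 and 5622 normalized reads at E14, 4420, 4520 and 4466 at E16 and 3717, 3963 and 3707 at P0, and the ages did not overlap. It fell at both steps, by 0.28 and then by 0.24 on the log2 scale (SE 0.07 each, limma adjusted p = 0.00456 and 0.0141). Rbbp7 (chromosome X, 162760402 to 162779092) held 3536, 3643 and 3691 normalized reads at E14, 4779, 4100 and 4655 at E16 and 4813, 4924 and 5267 at P0, with every library of a later age above those of an earlier one. Its log2 fold change was 0.46 for P0 over E14 (SE 0.08, limma adjusted p = 0.000131), of which 0.31 came at the first step (limma adjusted p = 0.00547) and 0.15 at the second (limma adjusted p = 0.137).

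The log2 difference of Rbbp7 minus Rbbp4 averaged -0.59 ± 0.02 at E14, 0.01 ± 0.13 at E16 and 0.40 ± 0.10 at P0 (SD, n = 3 each; exact permutation p = 0.00357, adjusted 0.00833 over the 7 exact tests), a comparison chosen after the values were seen. Per kilobase Rbbp7 was the highest member in all 5 groups, at 1720 ± 81.3 normalized reads at P0 against 1250 ± 27.3 at E14, and Rbbp4 stood at 434 ± 16.6 at P0 against 622 ± 22.7 at E14. Rbbp7 shares 174 exon bases with Txlng on the opposite strand, and a transcript of the gene Gm6382 is 97.1% identical to it over 942 bases. Rbbp4 shares 796 exon bases with Gm26722 and 782 with Sync, both on the opposite strand. Part of the reads of either gene could therefore belong elsewhere. Opposite-strand overlap was also found for Ezh2, Eed, Suz12 and Mtf2.

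Of the accessory subunits, Jarid2 (chromosome 13, 44729474 to 44921643), a subunit that links PRC2 to chromatin in embryonic stem cells, held 2504, 2634 and 2510 normalized reads at E14, 1842, 1802 and 1830 at E16 and 1650, 1479 and 1511 at P0. No libraries of different ages overlapped. It fell by 0.48 and then by 0.24 on the log2 scale (SE 0.07 each, limma adjusted p = 0.000181 and 0.0199), and the second step lost its call without E16 library 3 (limma adjusted p = 0.0599) or P0 library 2 (0.087). Mtf2 (chromosome 5, 108065674 to 108109004), a Polycomb-like protein that binds unmethylated CpG-rich DNA, held 5611, 5263 and 6893 normalized reads at E14, 4381, 3876 and 3924 at E16 and 4877, 4720 and 3942 at P0. The E14 libraries were above the rest, and those of E16 and P0 overlapped. It fell by 0.54 on the log2 scale up to E16 (SE 0.11, limma adjusted p = 0.00152) and measured 0.15 from there to P0 (SE 0.11, limma adjusted p = 0.299).

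In counts, 8 of 8 members passed between E14 and P0, in a comparison where 55.7% of all genes passed. Of these members 6 were lower and 2 higher at P0, against 30.6% and 25.1% of all genes. Between E14 and E16, 7 of 8 passed (33.0% of all genes), 5 lower and 2 higher (17.8% and 15.2% of all genes, or 1915 lower and 1642 higher calls, and 1497 and 1883 after rescaling to one total). Between E16 and P0 4 of 8 did, all lower (33.4% of all genes passed, 16.6% lower and 16.8% higher), and 2 did without E16 library 3. In the test for any change over the 3 ages 8 of 8 passed, as did 59.7% of all genes. The libraries did not overlap for 8 of 8 members between E14 and P0, for 8 of 8 between E14 and E16 and for 5 of 8 between E16 and P0, against 65.2%, 46.4% and 44.8% of all genes. The members' median log2 fold change was -0.48 for P0 over E14, beside -0.05 over all genes tested. Whether a member changed differently after E16 than before it was tested as a contrast added later, and it passed for 1 member, Mtf2, with a log2 difference of 0.69 (limma adjusted p = 0.0253; 13.6% of all genes passed, 8.0% with a positive difference, which made 862 positive and 606 negative calls, or 632 and 717 after rescaling to one total). Over all genes this contrast gave 1468 calls, but 625 without E16 library 3, 887 without P0 library 2 and 976 without E14 library 2. Mtf2 did not pass without E16 library 2 or 3 or P0 library 1 or 2, at limma adjusted p of 0.0503 to 0.105.

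**Figure D2:**
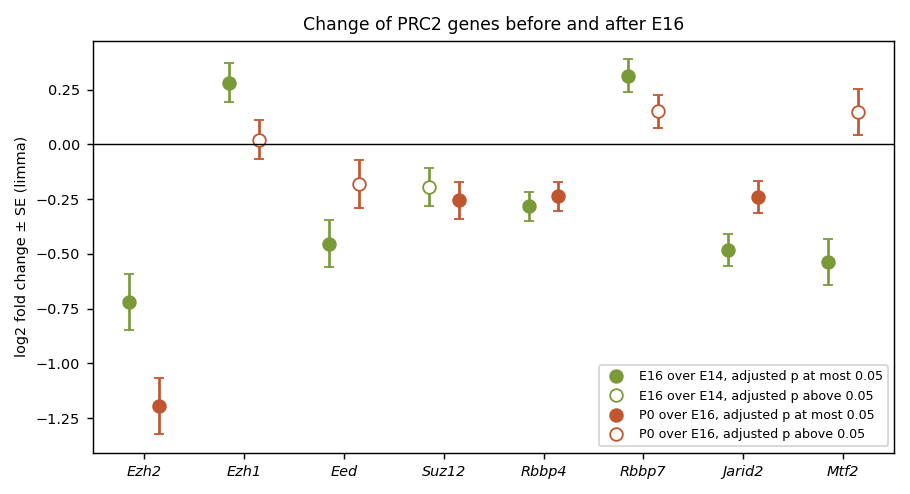
Log2 fold changes from limma with their standard errors (vertical axis) for 8 PRC2 genes between E14 and E16 and between E16 and P0; filled points passed an adjusted p of 0.05 and open points did not. Ezh2 has the lowest value at both steps, -0.72 and -1.19, and Mtf2 lies at -0.54 before E16 and at 0.15 after it.

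Per kilobase of exon, Ezh2 ranked 4 of 8 members at E14 and at E16, and 7 of 8 at P0. At E14 the order ran Rbbp7 (1250), Mtf2 (1040), Rbbp4 (622), Ezh2 (529), Eed (298), Suz12 (282), Jarid2 (262) and Ezh1 (83.6 normalized reads per kilobase). At P0 it ran Rbbp7 (1720), Mtf2 (792), Rbbp4 (434), Suz12 (207), Eed (191), Jarid2 (159), Ezh2 (141) and Ezh1 (103). At E14 the neighbours Rbbp4 and Ezh2, Eed and Suz12, and Suz12 and Jarid2 overlapped between libraries, and at P0 Suz12 and Eed, and Jarid2 and Ezh2, overlapped.

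The 5 genes whose log2 level followed that of Ezh2 most closely over the 9 time series libraries were Megf11 and Hdac2 (Pearson r = 0.995 each), Trim36 (0.994), Aqr (0.993) and Ptma (0.992). Hdac2 encodes a histone deacetylase and Aqr an RNA helicase of the spliceosome. For Ezh1 they were Cend1 (0.989), Pea15a and Asns (0.988 each), 2610002M06Rik and Rgs20 (0.987 each), of which Cend1 is known for cell cycle exit in neurons and Asns makes asparagine. Among the members, r with Ezh2 was 0.96 for Suz12, 0.957 for Rbbp4, 0.924 for Jarid2, 0.879 for Eed and 0.584 for Mtf2, against -0.849 for Rbbp7 and -0.789 for Ezh1. These values describe libraries that share their age, and carry no test.

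At E14, 2 of 9 PRC2 genes passed the test between GFP+ and GFP− cells, Jarid2 higher and Phf19 lower in GFP+ cells, in a comparison where 30.7% of all genes passed, 12.7% higher and 18.0% lower. Jarid2 was 1.27-fold higher and Phf19 3.1-fold lower. For both catalytic subunits, Ezh2 and Ezh1, the libraries of the fractions overlapped, as they did for Eed, Suz12, Rbbp4 and Mtf2.

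**Figure D3:**
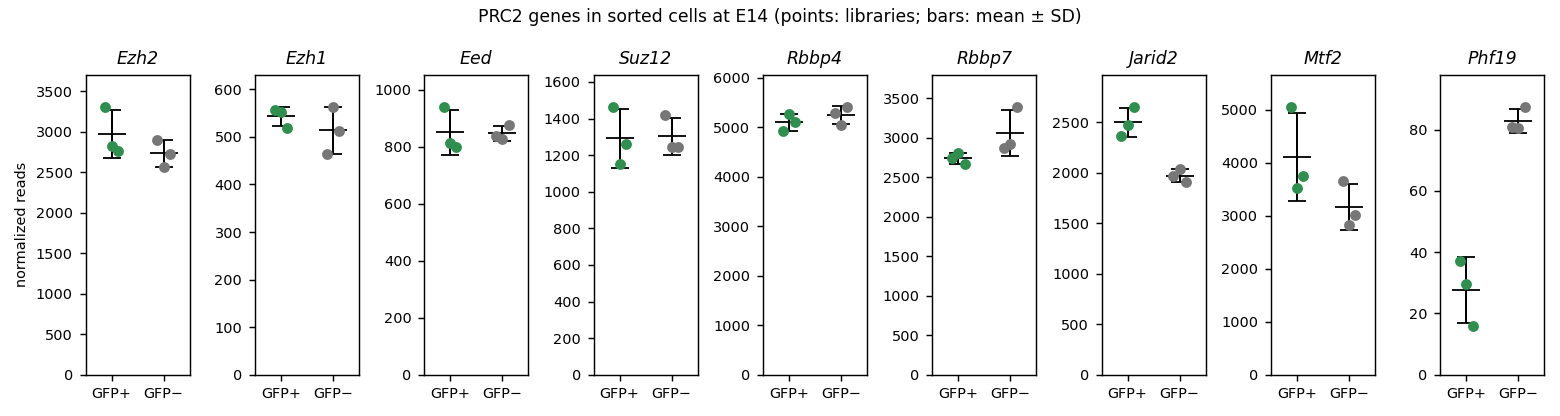
Normalized reads (vertical axes from 0) of 9 PRC2 genes in sorted GFP+ cells (left in each panel) and GFP− cells (right) at E14; points are the 3 libraries of each group and bars the mean with its SD. Phf19 stands at 15.95 to 37.1 in GFP+ cells against 80.5 to 87.5 in GFP− cells, and Ezh2 overlaps between the groups.

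Phf19 (chromosome 2, 34893757 to 34914026, minus strand), a Polycomb-like protein that binds histone H3 methylated at lysine 36, held 37.1, 29.6 and 15.95 normalized reads in GFP+ libraries, against 80.7, 80.5 and 87.5 in GFP− libraries. All 3 GFP+ libraries were below all GFP− libraries. The log2 fold change was -1.63 (SE 0.30, limma adjusted p = 0.00133), and it was by far the least abundant member, at 5.47 ± 2.13 normalized reads per kilobase in GFP+ cells and 16.5 ± 0.783 in GFP− cells. The 10 markers of dividing cells moved with it, as their sums above show. So did the 10 of radial glia and progenitors, which summed to 7160 to 8610 normalized reads in GFP+ libraries against 79300 to 92400 in GFP− libraries, and their part in the result was not tested. Jarid2 held 2364, 2476 and 2652 normalized reads in GFP+ libraries, against 1967, 2035 and 1904 in GFP− libraries. The groups did not overlap, and the log2 fold change was 0.34 (SE 0.08, limma adjusted p = 0.00541).

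Mtf2 held 5060, 3518 and 3744 normalized reads in GFP+ libraries, against 3661, 2829 and 3018 in GFP− libraries, and the groups overlapped. The log2 fold change of 0.36 (SE 0.14) did not pass (limma adjusted p = 0.0656), but it did without GFP+ library 2 (0.47, limma adjusted p = 0.0339) or GFP− library 1 (0.47, limma adjusted p = 0.0181), and the authors' deposited table lists 0.37 with an adjusted p of 0.0371. Rbbp7 held 2741, 2806 and 2674 normalized reads in GFP+ libraries, against 2867, 2918 and 3396 in GFP− libraries. Its groups did not overlap, and its log2 fold change of -0.16 (SE 0.08, limma adjusted p = 0.188) passed where the libraries were rescaled to one total (-0.25, limma adjusted p = 0.0332). Mtf2 and Rbbp7 also passed with a replicate block (limma adjusted p = 5.57e-06 and 0.0387), but the library numbers were not taken to pair the libraries. The GFP+ and GFP− libraries did not overlap for 3 of the 9 members, against 44.1% of all genes.

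Ezh2 held 3309, 2827 and 2765 normalized reads in GFP+ libraries, against 2899, 2569 and 2730 in GFP− libraries, with a log2 fold change of 0.12 (SE 0.09, limma adjusted p = 0.364). Ezh1 held 558, 552 and 519 in GFP+ libraries, against 464, 564 and 513 in GFP− libraries (0.08, SE 0.10, limma adjusted p = 0.576). The log2 difference between Ezh2 and Ezh1 averaged 2.44 ± 0.11 in GFP+ and 2.41 ± 0.23 in GFP− cells (SD, n = 3 each; two-sided exact permutation p = 0.9, where 3 against 3 libraries allow no value below 0.1). The other core subunits gave no call. Eed averaged 850 ± 78.4 (GFP+) against 847 ± 27.5 normalized reads (GFP−), with a log2 fold change of 0.00 (SE 0.09). Suz12 averaged 1291 ± 160 (GFP+) against 1303 ± 101 (GFP−), a change of -0.02 (SE 0.10), and Rbbp4 5098 ± 175 (GFP+) against 5250 ± 186 (GFP−), a change of -0.04 (SE 0.07; SD, n = 3 each). The members' median was 0.00, beside 0.02 over all genes. Of the calls over all genes 41.3% were higher in GFP+ cells, and 28.1% where the libraries were rescaled to one total, which moved the median of all genes to -0.07.

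Other genes of the pathway were counted from lists, whose medians stand beside a log2 fold change over all genes of -0.05 for P0 over E14 and 0.02 for GFP+ over GFP− cells. Their counts stand beside 30.6% of all genes lower and 25.1% higher at P0 than at E14, and 18.0% lower and 12.7% higher in GFP+ than in GFP− cells. Of the further PRC2 subunits and inhibitors, 4 were tested between E14 and P0, of which 2 fell and 1 rose (median -0.23). Lcor and Lcorl, whose loci encode the PALI subunits, fell by 0.997 and 0.66 on the log2 scale (SE 0.08 each, limma adjusted p = 2.87e-07 and 1.52e-05), and Aebp2, the partner of Jarid2 in PRC2, rose by 0.40 (SE 0.10, limma adjusted p = 0.00351). None of 5 passed between GFP+ and GFP− cells (median 0.15). Of the H3K27 demethylases 2 were tested between E14 and P0 (median -0.39), and Uty, on the Y chromosome, fell by 0.69 (SE 0.17, limma adjusted p = 0.00428). The sources used here do not give the sex of the embryos and pups. None of 3 passed between GFP+ and GFP− cells (median 0.25).

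PRC1, the complex that places ubiquitin on histone H2A, had 25 subunits tested between E14 and P0, of which 11 fell and 4 rose (30.6% and 25.1% of all genes), with a median log2 fold change of -0.21. Those with the largest falls were Cbx2 (-1.36), a chromobox protein that binds the PRC2 mark, Phc2 (-1.22) and the ubiquitin ligase Rnf2 (-0.80), and those with the largest rises Scml4 (0.81), Cbx6 (0.46) and Cbx7 (0.42). The Cbx7 call was lost without E14 library 2 or P0 library 1, at limma adjusted p of 0.0831 and 0.0822. Between GFP+ and GFP− cells, 8 of 26 were higher and 1 lower (median 0.17), with Cbx2 at 0.55, Scmh1 at 0.54 and Pcgf2 at 0.46, against Pcgf5 at -2.32. Without GFP− library 3 Scmh1 and Pcgf2 did not pass (limma adjusted p = 0.0679 and 0.0657). The PR-DUB complex, which removes the H2A mark, had 2 of 9 genes lower at P0 than at E14, Asxl3 (-0.74) and Hcfc1 (-0.39), none higher (median -0.10), and 1 of 10 higher in GFP+ cells, Mbd5 (0.47), and none lower (median 0.16). These PR-DUB counts are no more than the shares of all genes.

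Of the other complexes that Rbbp4 or Rbbp7 serves, 12 of 19 genes fell between E14 and P0 and 1 rose, with a median of -0.32. Sap30 of Sin3 fell most (-2.07), before Hdac2 (-0.996) and Gatad2a of NuRD (-0.95), and Chd5, a neuronal NuRD remodeller, rose by 0.75. Between GFP+ and GFP− cells 4 of 20 were higher (median 0.08), with Smarca1 at 0.73, Mta3 at 0.49 and Chd5 at 0.32, and 3 lower, the CAF-1 genes Chaf1b (-1.19) and Chaf1a (-0.95) and Hdac1 (-0.41). The Chd5 call was lost after rescaling to one total (0.23, limma adjusted p = 0.127) and without GFP+ library 2 or 3 or GFP− library 1 or 3 (limma adjusted p = 0.0798 to 0.123), and the Hdac1 call without GFP+ library 3 or GFP− library 1 or 3 (limma adjusted p = 0.064 to 0.0855). Of the Trithorax-type genes, which place or remove methyl groups on lysine 4 of histone H3, 7 of 12 fell between E14 and P0 and 0 rose (median -0.35), led by the demethylases Kdm5b (-1.18) and Kdm5c (-0.52) and the core subunit Rbbp5 (-0.50). Between GFP+ and GFP− cells 4 of 14 were higher (median 0.15), among them Kmt2a (0.48), Kmt2c (0.44) and Kdm5b (0.39), and 0 lower, and Kmt2c lost its call where libraries were rescaled to one total (0.34, limma adjusted p = 0.0635) and without GFP+ library 3 or GFP− library 2 or 3 (limma adjusted p = 0.0549 to 0.095).

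A list of E2F, DREAM and cell division genes held 30 genes, of which 20 were lower and 2 higher in GFP+ than in GFP− cells, with a median of -1.33. Of these, 10 are also markers of dividing cells, and of the other 20 genes 10 were lower. Ccnb1 (-4.67), Top2a (-4.13) and Mcm3 (-3.94) were lowest, and E2f7 (0.92) and Rb1 (0.77) were higher. The E2f7 call was lost without GFP+ library 3, GFP− library 2 or GFP− library 3, at limma adjusted p of 0.0691 to 0.0746. Between E14 and P0, 14 of the 30 were tested, of which 8 fell and 3 rose (median -0.24), with Lin9 at -0.93, Rb1 at -0.61 and E2f6 at -0.60, against E2f3 at 0.47, Mcm6 at 0.34 and Rbl2 at 0.27. Of 43 developmental regulators known as Polycomb targets, 19 passed the filter on low values in the sorted cells, and 16 of these were lower in GFP+ cells and 0 higher (median -3.48), led by Dlx1 (-4.65), Isl1 (-4.64) and Olig2 (-4.63). Of the 16, 8 also stand in the marker lists of other cell types above, these 3 among them, and 8 of the 11 tested genes outside those lists were lower. A gene that passed the filter through its GFP− values alone had to be lower in GFP+ cells. None of the 43 had a row in the time series.

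Among the members, Ezh2 had the most abundant circles. It ranked 7 of 2824 host genes by summed circRNA level in the time series and 3 of 1982 in the GFP− cells. Its main circle, circ_00007_Ezh2, ranked 8 of 7528 circRNAs. The summed level of the Ezh2 circles fell between E14 and P0. Of the other members, 11 circRNAs were listed in the time series, all at or below 8.22 normalized reads in any library and at 0 in all 3 P0 libraries. Each of these was also at 0 in some E14 or E16 libraries. The P0 libraries held 11196 to 18097 back-splice reads, against 22231 to 33061 at E14 and E16, and the part of this depth in the zeros was not tested. No file gives the coordinates of these circles, so their exons are not stated, and a number in a name is specific to its table.

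The 11 Ezh2 circles summed to 526, 588 and 459 reads at E14, 487, 299 and 405 at E16 and 133, 159 and 141 at P0. On the authors' scaling this was 415 ± 11.2 normalized reads at E14, 307 ± 19.8 at E16 and 215 ± 46.1 at P0 (SD, n = 3 each), and every library of a later age was below every library of an earlier one. The log2 difference of P0 minus E14 was -0.96 (exact permutation p = 0.00357 over 3 ages, the smallest value possible, adjusted 0.00833 over the 7 exact tests). The authors scaled the circRNA and gene tables separately, and where circRNA reads were scaled by the factors of the gene table the difference was -1.99. All circRNA reads together came to 1255 ± 113 per 1000000 gene reads at E14, 1052 ± 150 at E16 and 542 ± 35.6 at P0.

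**Figure D4:**
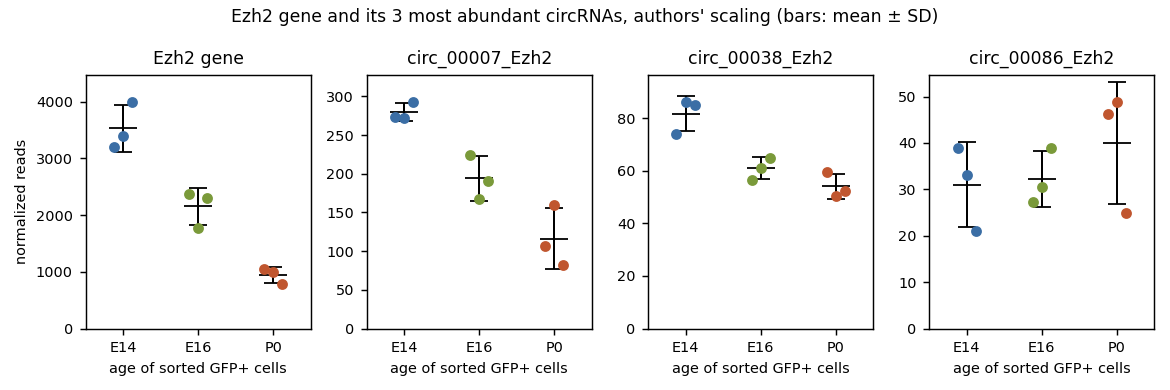
Normalized reads on the authors' scaling (vertical axes from 0) of the Ezh2 gene and its 3 most abundant circRNAs in GFP+ cells at E14, E16 and P0; points are the 3 libraries of each age and bars the mean with its SD. circ_00007_Ezh2 lies at 272 to 293 at E14 and at 81.8 to 160 at P0, while circ_00086_Ezh2 overlaps between all ages.

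circ_00007_Ezh2 held 273, 272 and 293 normalized reads at E14, 224, 167 and 191 at E16 and 107, 160 and 81.8 at P0. The 3 P0 libraries were below all others, and so were those of E16 relative to E14. Its log2 fold change of P0 over E14 was -1.31 (SE 0.20, limma adjusted p = 0.000893), and -2.33 on the scaling of the gene table (limma adjusted p = 5.5e-06). On the authors' scaling it was the 1 circle called of 6 Ezh2 circles that passed a mean of 2 normalized reads, where 3.19% of 1630 circRNAs passed and 1.96% were lower. Over all circRNAs 20 calls were higher and 32 lower, with 32 higher and 23 lower where libraries were rescaled to one total and 8 higher and 262 lower on the scaling of the gene table. circ_00038_Ezh2 held 74.1, 86.2 and 84.9 at E14, 56.6, 61.1 and 65.0 at E16 and 59.4, 50.5 and 52.2 at P0. Its P0 and E14 libraries did not overlap, which held for 2 of the 6 tested member circRNAs, these 2 circles, and for 21.2% of all circRNAs tested. Its log2 fold change of -0.59 (SE 0.23, limma adjusted p = 0.147) passed on the scaling of the gene table (-1.60, limma adjusted p = 0.000899).

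circ_00086_Ezh2 held 39.0, 33.1 and 21.0 normalized reads at E14, 27.3, 30.5 and 39.0 at E16 and 46.2, 48.9 and 24.9 at P0, and all ages overlapped. Its log2 fold change of P0 over E14 was 0.34 (SE 0.35, limma adjusted p = 0.628) on the authors' scaling and -0.65 (limma adjusted p = 0.233) on that of the gene table. The 3 rarer tested circles, circ_00507_Ezh2, circ_00932_Ezh2 and circ_01041_Ezh2, stayed at or below 16.2 normalized reads and did not pass on the authors' scaling, and the other 5 stayed at or below 3.65. On the scaling of the gene table a rarer circle passed beside circ_00007_Ezh2 and circ_00038_Ezh2. At the separate steps limma called 0 of 6 Ezh2 circles between E14 and E16 (1 at an unadjusted p below 0.05; 0.0% of all circRNAs passed) and 0 of 6 between E16 and P0 (3 at an unadjusted p below 0.05; 0.245% of all passed). In the authors' deposited table the adjusted p of circ_00007_Ezh2 was 0.985 and 0.919 for these steps.

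The proportion of circ_00086_Ezh2 to circ_00007_Ezh2 rose with age. circ_00007_Ezh2 made up 67.5 ± 2.75% of Ezh2 circle reads at E14, 63.1 ± 5.38% at E16 and 53.1 ± 7.33% at P0 (SD, n = 3 each). circ_00086_Ezh2 made up 7.51 ± 2.36%, 10.6 ± 2.09% and 18.3 ± 3.14%, and circ_00038_Ezh2 19.7 ± 1.13%, 19.97 ± 2.15% and 25.9 ± 5.94%, at E14, E16 and P0 in turn. The log2 difference of circ_00086_Ezh2 minus circ_00007_Ezh2 averaged -3.17 ± 0.50 at E14, -2.56 ± 0.38 at E16 and -1.52 ± 0.28 at P0 (exact permutation p = 0.00714, n = 3 each, adjusted 0.0125 over the 7 exact tests). That of circ_00038_Ezh2 minus circ_00007_Ezh2 averaged -1.76 ± 0.11, -1.65 ± 0.28 and -1.04 ± 0.53 (exact permutation p = 0.104, n = 3 each, adjusted 0.145), with p = 0.0179 without P0 library 2. Both comparisons were chosen after the values were seen, and the read counts behind them at P0 are 65, 98 and 69 for circ_00007_Ezh2, 36, 31 and 44 for circ_00038_Ezh2 and 28, 30 and 21 for circ_00086_Ezh2.

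Set against the reads of the Ezh2 gene in the same library, which needs no scaling, the circles together showed no change beyond the spread of the libraries. They came to 164, 152 and 165 back-splice reads per 1000 Ezh2 gene reads at E14, 179, 158 and 164 at E16 and 158, 163 and 133 at P0, and the ages overlapped. The log2 ratio of P0 minus E14 was -0.08 (exact permutation p = 0.386 over 3 ages, adjusted 0.45), with SDs of 0.07 at E14, 0.09 at E16 and 0.16 at P0, in a comparison added after the values were seen. Over the 1558 single circRNAs that passed the filter and had a host in the gene table, the median log2 change of circRNA to host between E14 and P0 was -0.90 on the scaling of the gene table. That measure takes each circle on its own, from log2(normalized reads + 1). It is therefore not like the summed reads of the Ezh2 circles, and single Ezh2 circles are given on it below. Gene reads include those that fall on circles, and a back-splice read covers 1 junction while gene reads cover all exons.

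**Figure D5:**
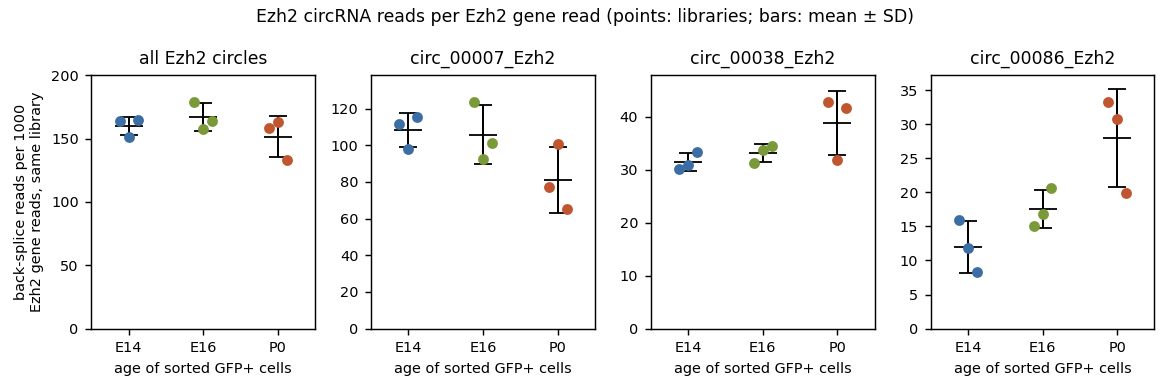
Back-splice reads per 1000 reads of the Ezh2 gene in the same library (vertical axes from 0) for all Ezh2 circles and for the 3 main ones in GFP+ cells at E14, E16 and P0; points are the 3 libraries of each age and bars the mean with its SD. All circles together lie at 133 to 179 across ages, and circ_00086_Ezh2 at 8.26 to 15.9 at E14 and 19.9 to 33.3 at P0.

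Among single circles, circ_00086_Ezh2 stood at 12 ± 3.81 reads per 1000 Ezh2 gene reads at E14, 17.6 ± 2.85 at E16 and 28.0 ± 7.15 at P0, and all 3 P0 libraries were above all E14 libraries. circ_00007_Ezh2 stood at 108 ± 9.22, 106 ± 16.1 and 81.1 ± 17.9, and circ_00038_Ezh2 at 31.5 ± 1.67, 33.2 ± 1.68 and 38.8 ± 6.04 (SD, n = 3 each). In limma's fit of the ratio of circRNA to host on the authors' scaling, 2 of 6 Ezh2 circles passed for P0 over E14, where 1.86% of all circRNAs passed and 0.899% were higher. Over all circRNAs 14 ratios were higher and 15 lower, with 24 and 14 after rescaling to one total and 1 and 163 on the scaling of the gene table. The median log2 change of all ratios was -0.21 on the authors' scaling and -0.90 on that of the gene table. circ_00086_Ezh2 had a log2 change of 2.26 (SE 0.35, limma adjusted p = 0.00109) and circ_00038_Ezh2 one of 1.32 (SE 0.24, limma adjusted p = 0.00362), with 0.60 for circ_00007_Ezh2 (SE 0.18, limma adjusted p = 0.0938). The last passed with no filter on low values (limma adjusted p = 0.000163) and after rescaling to one total (0.81, limma adjusted p = 0.0133), which made 3 circles called. On the scaling of the gene table the change was 1.26 for circ_00086_Ezh2 (limma adjusted p = 0.0246), 0.31 for circ_00038_Ezh2 (limma adjusted p = 0.43) and -0.42 for circ_00007_Ezh2 (limma adjusted p = 0.147), so the call for circ_00086_Ezh2 was the one that held on both.

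At E14 none of the Ezh2 circles passed between GFP+ and GFP− cells in the authors' deposited table, where 11 of 958 circRNAs with an adjusted p did. Its main circle there, circ_00005_Ezh2, had 232, 198 and 214 normalized reads in GFP− libraries and ranked 4 of 3927 circRNAs. The authors' deposited table gives it a mean of 227 over all libraries, from which a GFP+ mean of 240 follows if 3 libraries of each group entered it on the same scale, and a log2 fold change of 0.17 (standard error 0.13, adjusted p = 0.981). For circ_00024_Ezh2 the same table lists 0.16 (standard error 0.23), for circ_00083_Ezh2 0.31 (0.38), for circ_00177_Ezh2 0.82 (0.53), for circ_00426_Ezh2 0.49 (0.80) and for circ_00591_Ezh2 -0.41 (1.71), with adjusted p of 0.917 to 0.987. The 8 other circRNAs of the members, of which 3 came from Ezh2, have an adjusted p of NA in the authors' deposited table and at most 7.04 normalized reads in a GFP− library. The gene Ezh2 had a log2 fold change of 0.12 in the same comparison.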

How the data were processed

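Total RNA of 15 libraries was sequenced after ribosomal RNA removal, per the labels' protocols. The genome builds GRCm38 and mm10 and the tools TopHat2, DESeq2 and Trim Galore stand in the submitters' processing notes, and versions are not given in the sources used here. The authors deposited normalized reads (a signal per gene or circRNA), scaled separately in the sorted gene table, the time series gene table and each circRNA table, and their own tables of log2 fold changes and p-values. The deposited values are whole multiples, within 0.1, of the value of 1 read in a library, from which depth was read. PCR reads are not independent molecules. Per-library circRNA columns of sorted GFP+ cells were not used here, so that comparison rests on the authors' deposited table. Sorted libraries are numbered as the columns are.

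Log2(normalized reads + 1) was fitted with limma 3.58.1 (trend) in R 4.3.3 over all genes with a mean of at least 5 and all circRNAs with a mean of at least 2 normalized reads. Time series libraries shared 1 fit, p-values were adjusted by Benjamini-Hochberg over each table, and an adjusted p of at most 0.05 passed. No member failed the filter among genes, and 6 of 22 member circRNAs passed it. The time series gene table holds no gene with a mean below 107.2 normalized reads. A fold change on this scale understates that of low features. Single differences over 3 ages were tested by exact permutation with an F statistic. Circle to gene ratios used log2 values of both tables. Gene positions and levels per kilobase used genes and the union of exons in the GENCODE M21 annotation of GRCm38, in which antisense overlap was found for Ezh2, Eed, Suz12, Rbbp4, Rbbp7 and Mtf2; whether counting used the strand is not given in the sources used here. Tables were handled with pandas 2.3.3 and numpy 2.4.6. On simulated data limma recovered 98% of 100 sorted genes changed by 1 on the log2 scale, 100% in the time series between E14 and P0, but 34% of 50 circRNAs (78% at a change of 2). The changed features were drawn from those at or above the median level, with 1 fixed dispersion for all. These shares therefore do not cover features of lower level, changes below 1, or the spread of the real libraries.

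Members and lists were chosen with earlier results of these data known. Named beside the members are at most 3 genes per list and direction with the largest change that passed, and the 5 genes most correlated with Ezh2 and with Ezh1. Alternatives were other pseudocounts (10 for genes, 0.5 for circRNAs), filters (500 and 5, or none), scaling to one total, leaving out each library, a replicate block, edgeR 4.0.16 on whole reads recovered from the sorted table (100% of values) and, added after the data were seen, scaling circRNA reads by the gene table.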

Additional observations from a re-analysis of the deposited data

How the results depend on the processing

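Of 2057 alternatives over 155 results, 1936 kept their direction and side of the threshold (counts within 1.5 times), and each of the 8 members' calls between E14 and P0 did so under all alternatives run. Depth limits mainly the circles, of which 16 of 22 had too few reads to test. The cause of the changes below was not tested, other than fewer genes tested under a filter. With a mean of at least 500 normalized reads, 2011 sorted genes, 1 member (Phf19 is not tested) and 21 list genes passed, against 5599, 2 and 59. edgeR on the recovered reads called 5541 sorted genes. Fitted with a replicate block, the sorted table gave 8466 calls and 4 members, with Mtf2 (adjusted p = 5.57e-06 in limma) and Rbbp7 (0.0387) added. Same-numbered libraries correlated at 0.098 to 0.367 (sorted), -0.113 to 0.245 (time series genes) and -0.022 to 0.076 (circRNAs), and not every pair was over 0.1. Sorted libraries of different number correlated at -0.297 to 0.229, and GFP+ library 2 correlated best with GFP− library 3, so the numbers were not taken to pair them. Rescaling to one total turned uncalled log2 changes of sorted Ezh1 to -0.012 and Eed to -0.093, and edgeR put Eed at -0.013. Leaving out 1 library, uncalled values ranged over -0.072 to 0.047 for sorted Eed, -0.113 to 0.062 for sorted Suz12, -0.032 to 0.069 for Ezh1 between E16 and P0, -0.081 to 0.146 for the Ezh2 to Ezh1 difference of the fractions, -0.139 to 0.007 for circle reads per Ezh2 gene read, and 0.523 to 1.024 for circ_00038_Ezh2 minus circ_00007_Ezh2. Likewise 2 to 5 members passed between E16 and P0, 8 to 53 circRNAs and 10 to 27 ratios between E14 and P0, with 8 circRNAs without E14 library 1 and 10 ratios without E14 library 2. A pseudocount of 0.5 gave 22 circRNAs, and no filter gave 76 ratios. On the scaling of the gene table, 270 circRNAs passed, 3 from Ezh2, which were circ_00007_Ezh2, circ_00038_Ezh2 and a rarer circle. There circ_00086_Ezh2 turned to -0.654 and did not pass (limma adjusted p = 0.233). Of the ratios 164 passed, 1 from Ezh2, that of circ_00086_Ezh2, while that of circ_00007_Ezh2 turned to -0.42 and did not pass (limma adjusted p = 0.147).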
